A study of Mus musculus with 10 samples.

Results

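The Ifi200 family is a group of interferon-activated genes that lie side by side on mouse chromosome 1. The members, 6 symbols taken by name from the deposited gene table, were Ifi203, Ifi204, Ifi207, Ifi209, Ifi211 and Ifi213. Each matched 1 of the 78317 genes listed. The tissue was a punch of mouse medial prefrontal cortex, labelled wild type and as mixed cell types, and its mRNA was sequenced. In the control group were 5 libraries (3, 4, 5, 7 and 9), whose mice had an injection of a control adeno-associated virus (AAV). In the miR-130a group were 5 libraries (13, 14, 15, 17 and 18), whose mice had an AAV that overexpresses the microRNA miR-130a-3p. All 10 libraries therefore came from mice that had received an AAV, and no uninjected group was analysed here. The promoter and serotype of the virus, the age and sex of the animals and the time after injection are not given in the sources used here. The design asks what changes in the transcripts of this tissue when the microRNA is overexpressed. Values are the authors' TPM (transcript abundance scaled to a fixed total), which are scaled for transcript length, so that levels of different genes can be compared, and which keep no record of the reads behind them.

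Libraries had between 24130 and 26429 genes above 0, and mitochondrial genes took 13.04% to 16.4% of TPM in control and 16.0% to 19.9% in miR-130a libraries. Control libraries 7 and 9 had the highest control sums of interferon-induced genes and of microglial markers. They also had the highest sums of border macrophage and monocyte, T and NK cell, and B and plasma cell markers. Not every gene of these lists followed that order. In the miR-130a group, library 15 had the highest sum of interferon-induced genes. It also had the highest sums of border macrophage and monocyte, T and NK cell, and neutrophil markers. Counts of calls for the members and for the lists of related genes and immune cell markers are also given without control libraries 7 and 9.

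Ifi200 proteins belong to the PYHIN family. They usually combine an N-terminal pyrin domain, which binds other pyrin domains, with a C-terminal HIN domain, which binds double-stranded DNA without regard to its sequence. The family includes the cytosolic DNA sensor AIM2, which assembles an inflammasome, and transcriptional regulators of the nucleus and nucleolus. Most members are induced by type I interferon through interferon-stimulated response elements (ISREs), a DNA sequence bound by interferon regulatory factors. In brain, interferon-activated genes are usually low and rise in microglia and infiltrating leukocytes during inflammation. The domain annotation in the deposited table gave a pyrin and a HIN domain to Ifi203, Ifi204, Ifi207, Ifi209 and Ifi211, and a pyrin domain only to Ifi213.

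The promoter sequences are shown because 4 of the 6 members hold the same motif there. RefSeq promoters (GRCm38.p6, 250 bases before to 50 after the annotated start) were matched by symbol for 5 of the 6 members, all but Ifi204. They were searched on both strands for the ISRE core GAAANNGAAA and for the interferon-gamma activated site TTCNNNGAA, which reads the same on both strands. Each stretch below has 70 bases, read 5′ to 3′ on the strand of the gene, with the ISRE core or the 10 bases nearest to it in capitals.
Ifi203: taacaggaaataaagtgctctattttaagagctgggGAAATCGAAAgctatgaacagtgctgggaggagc
Ifi207: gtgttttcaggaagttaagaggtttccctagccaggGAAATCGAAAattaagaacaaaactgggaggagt
Ifi209: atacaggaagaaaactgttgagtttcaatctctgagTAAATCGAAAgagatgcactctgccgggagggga
Ifi211: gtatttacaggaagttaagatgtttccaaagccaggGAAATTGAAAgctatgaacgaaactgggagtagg
Ifi213: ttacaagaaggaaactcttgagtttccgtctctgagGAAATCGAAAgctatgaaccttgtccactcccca
The stretches lie at chr1:173942494-173942563 (Ifi203), chr1:173741817-173741886 (Ifi207), chr1:173913050-173913119 (Ifi211) and chr1:173599312-173599381 (Ifi213), all on the minus strand, and at chr1:173630744-173630813 (Ifi209) on the plus strand.

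The ISRE core was found for 4 of the 5 members with an entry, and in that table for 3.99% of 27025 genes. Counted by promoter it was in 4 of 6, since Ifi203 has a pair of entries, against 3.44% of all 32851 promoters. Its first base lay 35 bases before the annotated start in Ifi203, for its entry that holds the motif, 41 bases before it in Ifi207, 37 in Ifi211 and 73 in Ifi213. In 3 of the members the 10 letters were GAAATCGAAA, which occur on either strand in 16 promoters of the table, or 0.0487%. These letters were picked as the most common match among the members, so that share is not an independent background. The 16 promoters include those of the related genes Mndal, Ifi206, Ifi208 and Ifi214 as well as the 3 members. Counted from 1 at the first letter of GAAATCGAAA, Ifi211 differed by C6T, which leaves the core intact. Ifi209 differed by G1T, so that the letters searched are not in its window. The stretch of Ifi207 matched that of Ifi211 at 58 of 70 positions, and the stretches of Ifi203 and Ifi211 matched at 42. The activated site TTCNNNGAA was found in 0 of the 6 member promoters, against 8.30% of all promoters. These matches describe letters in a window and do not show binding. The motif was chosen after the promoters had been seen.

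Most Ifi200 transcripts were lower in the miR-130a group. Ifi204, Ifi211, Ifi207 and Ifi203 fell, which is 4 of 6 members, while Ifi209 and Ifi213 did not pass (limma, adjusted p under 0.05 over all 15680 genes tested). Over the whole table the same rule called 11.3% of genes lower. All 6 members had a mean of at least 1 TPM over the 10 libraries and so were tested, but 4 of them had a mean under 1 TPM in the miR-130a group and passed that filter through the controls. Summed over the 6 genes, the control level was 39.9 ± 22.6 TPM and the miR-130a level 6.31 ± 5.58 TPM (SD, n = 5 each), 6.32-fold lower. By library the sum was 24.5, 21.9, 24.6, 58.7 and 69.7 TPM in control libraries 3, 4, 5, 7 and 9. It was 3.01, 2.39, 15.6, 3 and 7.56 TPM in miR-130a libraries 13, 14, 15, 17 and 18. The groups did not overlap in the sum, and control libraries 7 and 9 stood well above the other 3; without them the sum was 3.75-fold lower. Without miR-130a library 15 it was 9.99-fold lower. In bulk tissue, fewer cells of a type and less RNA per cell cannot be told apart.

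**Figure D1:**
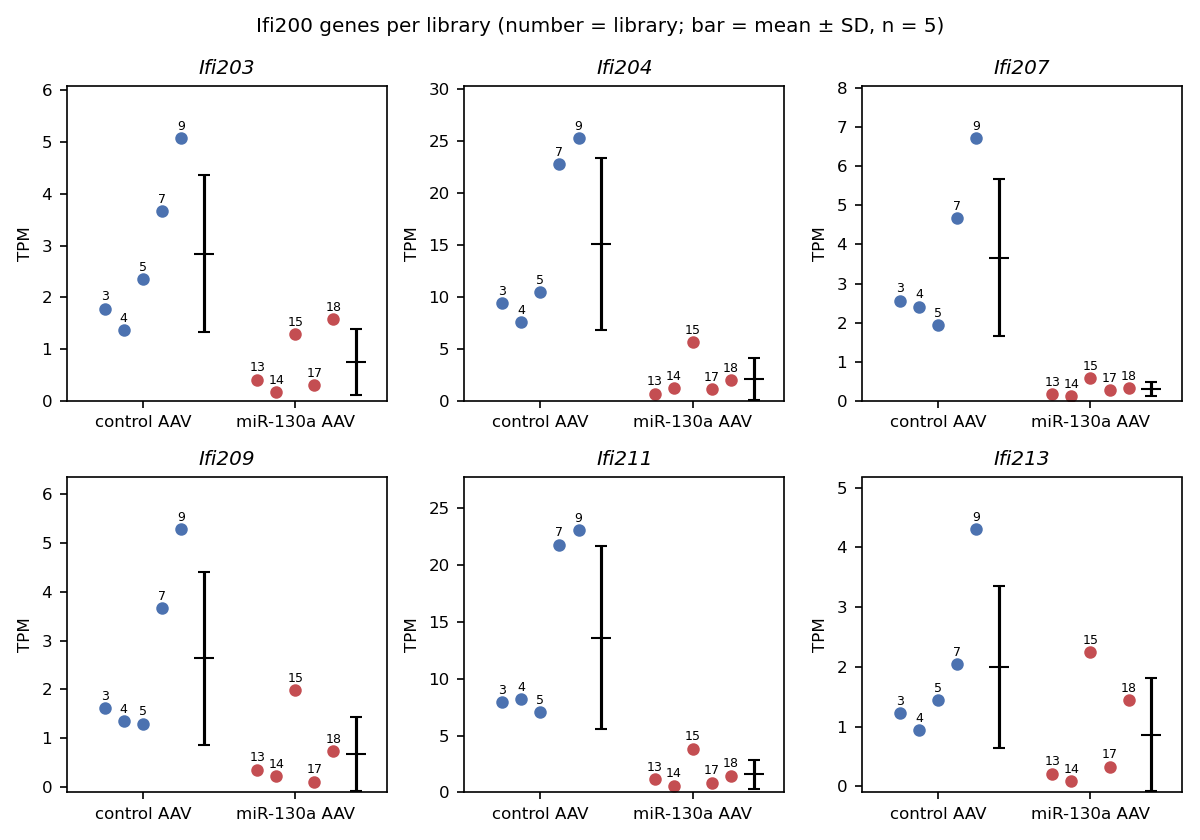
TPM of each of the 6 Ifi200 genes (y axis, linear, own scale per panel) in the 5 control and 5 miR-130a libraries (points, labelled with the library number), with the mean and SD of each group (black bar, n = 5). Ifi204, Ifi207 and Ifi211 do not overlap between the groups. Control libraries 7 and 9 are the highest controls in every panel, and miR-130a libraries 15 and 18 the highest of their group.

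Ifi204 (ENSMUSG00000073489) encodes p204, a mouse protein related to human IFI16 that senses DNA and acts in the nucleus as a transcriptional cofactor. It was the most abundant member, at 9.43, 7.59, 10.5, 22.8 and 25.2 TPM in control libraries 3, 4, 5, 7 and 9. In miR-130a libraries 13, 14, 15, 17 and 18 it was at 0.69, 1.2, 5.62, 1.12 and 2.02 TPM. Every miR-130a library was below every control, with library 15 closest to them. The group means were 15.1 ± 8.25 and 2.13 ± 2.01 TPM (SD, n = 5 each), and the log2 difference of TPM + 1 was −2.40 (SE 0.40, limma adjusted p = 0.00362; exact permutation p = 0.00794, the smallest that 5 against 5 libraries can give).

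Ifi211 (ENSMUSG00000026536), which RefSeq also lists as Ifi205b, encodes a pyrin and HIN domain protein. Its controls were at 7.94, 8.22, 7.09, 21.8 and 23.1 TPM in the order of libraries given above, and its miR-130a libraries at 1.17, 0.59, 3.84, 0.85 and 1.46 TPM. The groups did not overlap. Means were 13.6 ± 8.08 and 1.58 ± 1.304 TPM (SD, n = 5 each), an 8.62-fold lower mean. Without miR-130a library 15 this was 13.4-fold, and without control libraries 7 and 9 it was 4.90-fold; for Ifi204 the ratio was 7.09 with all libraries, 12.01 without library 15 and 4.30 without 7 and 9. On the log2 scale the difference was −2.45 (SE 0.38, limma adjusted p = 0.00259; exact permutation p = 0.00794, the smallest possible).

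Ifi207 (ENSMUSG00000073490), a pyrin and HIN domain protein once named PyhinA, had the largest ratio of means among the 6, 12.3-fold (7.73-fold without control libraries 7 and 9). It was at 2.56, 2.41, 1.94, 4.68 and 6.71 TPM in the controls and at 0.17, 0.12, 0.59, 0.28 and 0.33 TPM in the miR-130a libraries. No library of either group reached the other group, and library 15 was again the highest of the miR-130a group. Because its levels were near the added 1 TPM, its log2 difference of −1.76 (SE 0.26, limma adjusted p = 0.00205) understates that ratio; the exact permutation p was 0.00794, the smallest possible. With 0.1 TPM added in place of 1, the log2 difference was −3.20.

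Ifi203 (ENSMUSG00000039997), a pyrin and HIN domain gene with several annotated transcripts, fell with overlapping ranges. Its controls were at 1.78, 1.37, 2.35, 3.66 and 5.07 TPM and its miR-130a libraries at 0.41, 0.17, 1.29, 0.31 and 1.58 TPM. Only miR-130a library 18 lay above a control, library 4. The log2 difference was −1.12 (SE 0.30, limma adjusted p = 0.0317; exact permutation p = 0.0159). This call did not hold without control libraries 7 and 9 (limma adjusted p = 0.113), nor without control libraries 5 or 7 or miR-130a libraries 13, 14 or 17 when each was left out alone (limma adjusted p between 0.0535 and 0.0834).

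Ifi209 (ENSMUSG00000043263), also known as Pyhin1, was at 1.61, 1.35, 1.3, 3.66 and 5.28 TPM in the controls and at 0.36, 0.22, 1.98, 0.11 and 0.73 TPM in the miR-130a libraries. In the miR-130a group 4 libraries lay below every control, and library 15 lay above control libraries 3, 4 and 5. Its log2 difference of −1.09 (95% confidence interval −1.84 to −0.33) did not pass (limma adjusted p = 0.0590; exact permutation p = 0.0317, unadjusted). Without miR-130a library 15 the difference was −1.32 and passed (limma adjusted p = 0.0261).

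Ifi213 (ENSMUSG00000073491), the pyrin-only member, was at 1.22, 0.94, 1.44, 2.05 and 4.31 TPM in the controls and at 0.21, 0.09, 2.25, 0.33 and 1.44 TPM in the miR-130a libraries. In the miR-130a group 3 libraries were below every control, while libraries 15 and 18 lay within the control range. The log2 difference was −0.72 (95% confidence interval −1.5 to 0.06) and did not pass (limma adjusted p = 0.211; exact permutation p = 0.127). The interval holds both no change and a fall as large as that of Ifi203.

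Ifi204, Ifi207 and Ifi211, 3 of the 6, had groups without overlap, against 9.46% of all tested genes with every miR-130a library below every control. The median log2 difference of the 6 members was −1.44, against −0.09 over all tested genes. Median-ratio scaling and quantile normalization raised the median of all genes to 0.01 and 0.05, and Ifi203, Ifi204, Ifi207 and Ifi211 were the 4 members called lower under each, where 7.64% and 6.67% of all genes were called lower. With control libraries 7 and 9 left out, 3 members passed, Ifi204 (−1.88, limma adjusted p = 0.0128), Ifi207 (−1.35, limma adjusted p = 0.00470) and Ifi211 (−1.88, limma adjusted p = 0.00730). Ifi209 and Ifi213 then had means under 1 TPM and were not tested, and the share of all genes called lower was 15.5%.

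**Figure D2:**
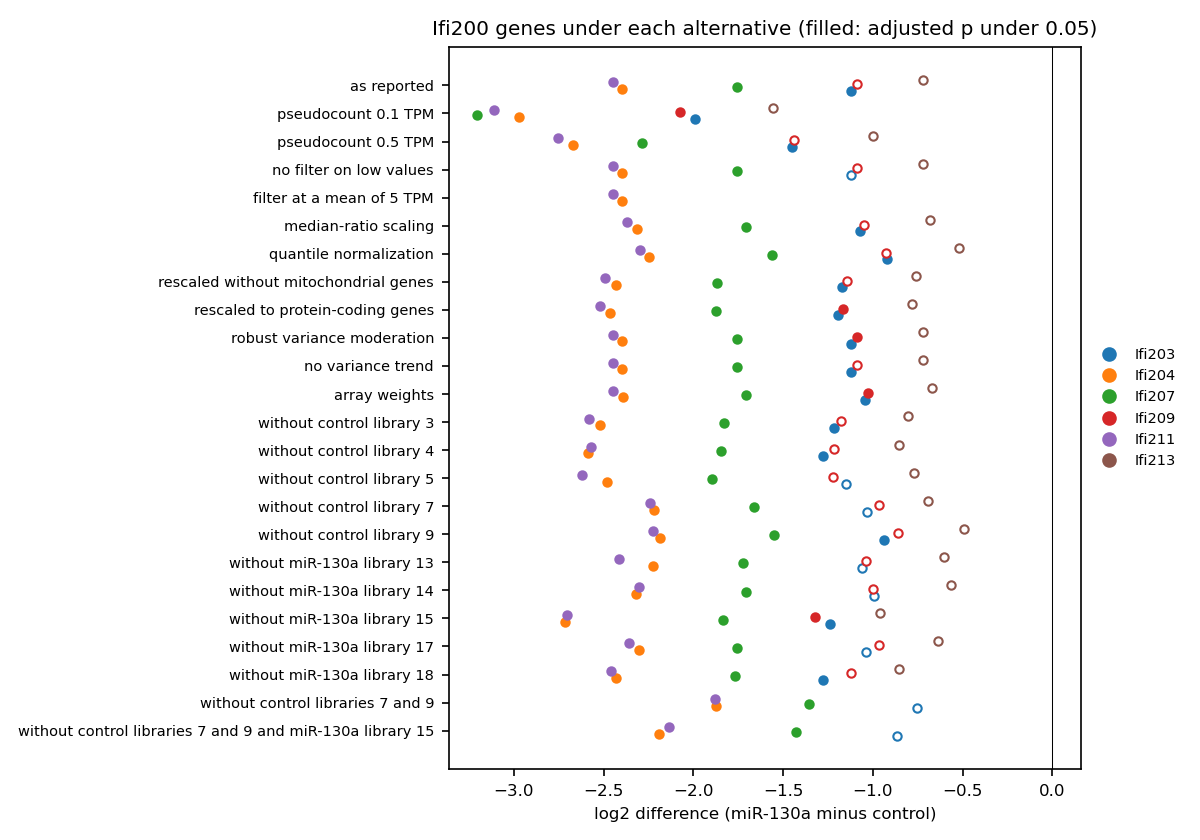
Log2 difference (x axis, miR-130a minus control) of each Ifi200 gene (colours) as reported and under 23 alternatives (y axis); filled points had a limma adjusted p under 0.05. Ifi204, Ifi207 and Ifi211 are filled in every row in which they were tested, Ifi203 in 14 of 22 alternatives, Ifi209 in 5 of 20 and Ifi213 in 0 of 20.

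The libraries kept much the same order from member to member. Control library 9 was the highest control for 6 of 6 members and library 7 the next for 6 of 6. In the miR-130a group, library 15 was the highest for 5 members and library 18 for Ifi203, and these 2 libraries were the top pair for all 6. Library 14 was the lowest for 4 members.

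Levels formed an upper pair, Ifi204 and Ifi211, and a lower set of 4. In control libraries Ifi204 exceeded Ifi211 by 1.47 ± 1.48 TPM (SD, n = 5), a difference within its spread. Ifi211 exceeded Ifi207, the next gene, in 5 of 5 libraries, by 9.97 ± 6.21 TPM. Below that, Ifi207, Ifi203, Ifi209 and Ifi213 followed at 3.66, 2.85, 2.64 and 1.99 TPM, and the neighbours Ifi203 and Ifi209 (0.21 ± 0.49 TPM) and Ifi209 and Ifi213 (0.65 ± 0.67 TPM) differed by less than their spread. Ifi207 exceeded Ifi203 in 4 of 5 control libraries, by 0.81 ± 0.75 TPM. In the miR-130a group Ifi204 and Ifi211 remained first and second in mean level, and Ifi207 was last at 0.30 TPM. The control means of Ifi204 and Ifi211 lay at the 53.3 and 50.8 percentiles of all tested genes, and those of the other 4 between the 11.1 and 21.6 percentiles.

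**Figure D3:**
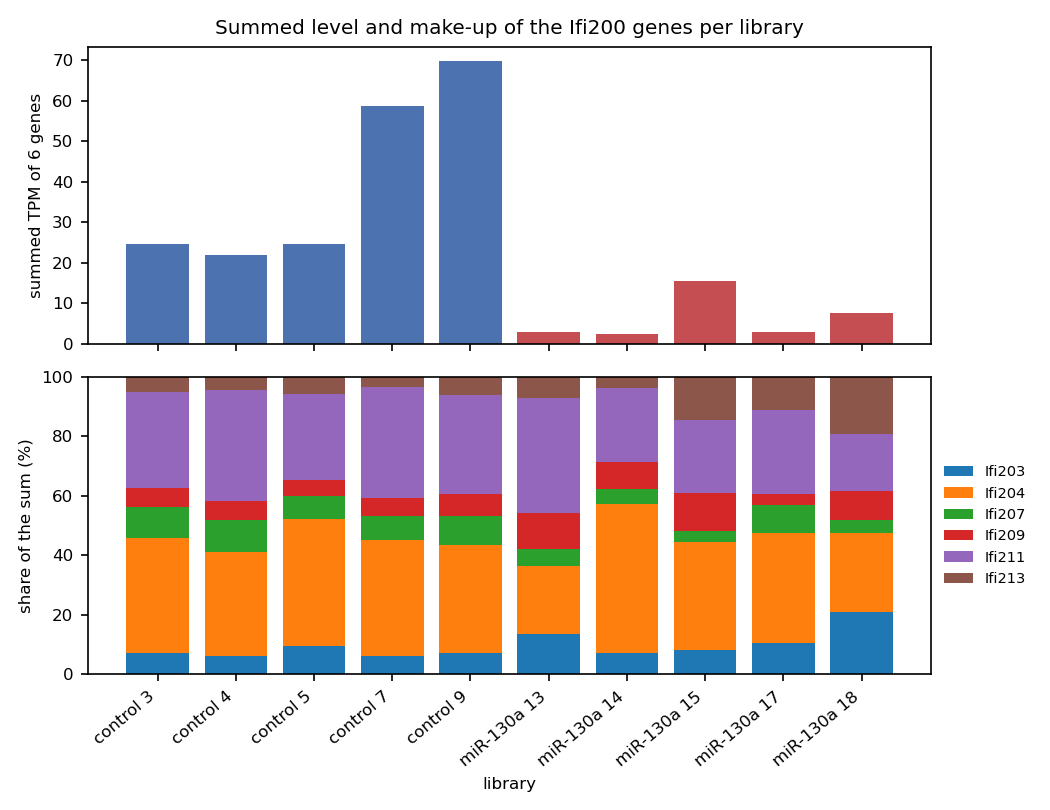
Summed TPM of the 6 Ifi200 genes per library (upper panel, bars from 0) and the share of each gene in that sum in percent (lower panel). Control libraries reach 21.9 to 69.7 TPM and miR-130a libraries 2.39 to 15.6 TPM; Ifi204 and Ifi211 are the largest shares in the controls.

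The make-up of the sum varied more in the miR-130a group. Shares in that group are taken of sums of only 2.39 to 15.6 TPM, and the difference in spread was not tested. Ifi207 made up 9.39% ± 1.42 of it in control and 5.63% ± 2.18 in the miR-130a group (SD, n = 5 per group; exact permutation p = 0.0238, 0.143 adjusted over the 6 shares). Ifi213 made up 4.96% ± 1.11 and 11.0% ± 6.02 (SD, n = 5 each; exact permutation p = 0.0635, 0.143 adjusted). Adjusted over the 6 shares, 0 passed, so a difference between members in the size of their fall was not shown; 1 share, that of Ifi207, was under 0.05 unadjusted.

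Ifi200 genes are recent duplicates, and the split of reads between near-identical copies is uncertain. In GENCODE M21 transcripts (GRCm38), 56.9% of the 100-base stretches of the longest coding transcript of Ifi211 also occurred, letter for letter, in another gene, 37.2% in Ifi205 and 19.6% in Ifi204. For Ifi204 the share was 16.8%, most of it (15.1%) with Ifi211, and for Ifi209 it was 17.9%, all with Ifi214. The shares of Ifi213 and Ifi203 were 6.12% and 3.31%. That of Ifi207 was 0.813%. The read length and the handling of reads with several matches are not given in the sources used here. How reads were split can therefore move the values of Ifi211 and Ifi204, and also their sum, since much of what Ifi211 shares is with Ifi205, which is not one of the 6.

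The deposited table held 8 other PYHIN genes. Of these, 5 were tested, 2 were lower and 0 higher, against 11.3% of all tested genes lower. Ifi205, Ifi206 and Ifi208, 3 of the 5, had a miR-130a mean under 1 TPM, so that these passed the filter through the controls. Ifi206, a pyrin and HIN domain gene next to Aim2, was at 2.39, 2.35, 2.83, 7.67 and 6.53 TPM in control libraries 3, 4, 5, 7 and 9 and at 0.16, 0.22, 1.17, 0.16 and 0.36 TPM in miR-130a libraries 13, 14, 15, 17 and 18. These groups did not overlap (log2 difference −1.84, limma adjusted p = 0.00360). Ifi208, annotated with a pyrin but no HIN domain, was at 2.39 ± 0.84 and 0.45 ± 0.34 TPM (SD, n = 5 each), also without overlap (−1.22, limma adjusted p = 0.00585). Of all tested genes, 9.46% had every miR-130a library below every control. Of 23 alternatives, Ifi206 passed in all 22 in which it was tested and Ifi208 in all 21. Without control libraries 7 and 9, 1 of 3 tested genes of this list, Ifi206, was lower, against 15.5% of all tested genes. Ifi205 and Ifi208 were then too low to be tested.

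The other 3 tested PYHIN genes did not pass. Aim2, the inflammasome sensor, was at 3.49 ± 1.14 and 2.15 ± 0.87 TPM (SD, n = 5 each; log2 difference −0.52, 95% confidence interval −1.03 to −0.02, limma adjusted p = 0.162). Mndal, a growth-inhibiting nuclear member, was at 3.54 ± 2.08 and 1.18 ± 0.85 TPM (SD, n = 5 each; log2 difference −1.01, limma adjusted p = 0.0896), and Ifi205 at 2.08 ± 1.79 and 0.28 ± 0.33 TPM (SD, n = 5 each; −1.09, limma adjusted p = 0.0807). Ifi205 passed in 3 of 18 alternatives, Mndal in 1 of 22 and Aim2 in 0 of 22. Ifi214 lay between 0 and 0.22 TPM and Ifi203-ps between 0 and 0.11 TPM, and Ifi202b was listed at 0 in all 10 libraries. Of the 7 other PYHIN genes with a promoter in the RefSeq table, 5 held the ISRE core; Aim2 and Ifi202b did not. The 70-base stretch around the core of Ifi213 matched those of Ifi208 at 69 and Ifi206 at 68 positions, and that of Ifi203 matched Mndal at 70.

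**Figure D4:**
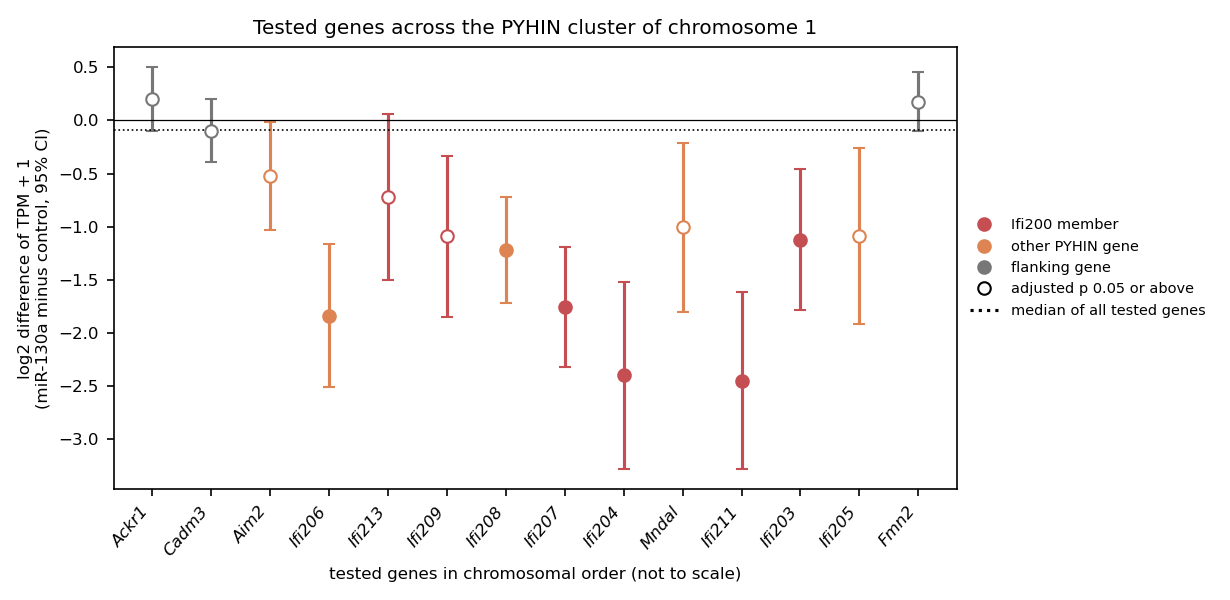
Log2 difference of TPM + 1 (y axis, miR-130a minus control, with 95% confidence interval) of the tested PYHIN genes and flanking genes in RefSeq gene order on chromosome 1 (x axis, not to scale); filled points had a limma adjusted p under 0.05 and the dotted line is the median of all tested genes, −0.09. The 11 PYHIN genes lie between −2.45 and −0.52, and the flanking Ackr1, Cadm3 and Fmn2 between −0.10 and 0.20.

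Genes flanking the cluster, with olfactory receptors left out, gave no call. Cadm3, a neuronal adhesion molecule on the Aim2 side of the members, had a log2 difference of −0.10 (limma adjusted p = 0.695), and Ackr1, a chemokine-binding receptor of blood vessels and red cells, of 0.20 (limma adjusted p = 0.377). On the other side Fmn2, a neuronal formin, had a difference of 0.17 (limma adjusted p = 0.410). Mptx1 and Mptx2 were listed at 0 in all 10 libraries and were not tested.

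Genes that signal to the family were lower in part. Of 13 tested genes for interferons, their receptors and JAK-STAT signalling, 10 were lower, 0 higher and 3 did not pass, with a median log2 difference of −0.86. Over all tested genes 11.3% were lower. Socs1 had a miR-130a mean under 1 TPM and passed the filter through the controls. Ifnar2, a chain of the type I interferon receptor, fell from 32.8 ± 5.6 to 17.6 ± 2.25 TPM, and Irf9, an interferon regulatory factor, from 39.2 ± 9.95 to 12.5 ± 5.91 TPM (SD, n = 5 each; limma adjusted p = 0.00204 and 0.00283). Irf8, a myeloid transcription factor, fell from 26.6 ± 13.1 to 6.15 ± 2.65 TPM (limma adjusted p = 0.00463). The interferon genes Ifnb1 and Ifna4 were listed at 0 in all 10 libraries, and Ifng lay between 0.09 and 1.33 TPM in control and between 0 and 0.24 TPM in miR-130a libraries, too low to be tested. Without control libraries 7 and 9, 8 of 12 tested genes of this list were lower, against 15.5% of all tested genes. With quantile normalization 8 of 13 were lower, against 6.67% of all tested genes.

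Other genes that interferon induces were lower in all 21 cases listed, against 11.3% of all tested genes, with a median log2 difference of −1.60. Mx1 had a miR-130a mean under 1 TPM and passed the filter through the controls. Oas1a, an antiviral nucleotide synthetase, had a log2 difference of −2.30 (SE 0.26), Rigi, an RNA sensor, of −1.32 (SE 0.19) and Oasl2, an OAS-like protein, of −2.06 (SE 0.30), with limma adjusted p-values between 0.000811 and 0.00205. Their summed level was 696 TPM in miR-130a library 15 and between 264 and 378 TPM in the other miR-130a libraries, 1569 and 1478 TPM in control libraries 7 and 9 and between 747 and 1107 TPM in the other controls. The Ifi200 sum had the same feature: library 15 was the highest of its group and libraries 7 and 9 the highest controls. Without control libraries 7 and 9, 15 of the 21 were lower, against 15.5% of all tested genes. Under median-ratio scaling or quantile normalization 19 were lower, against 7.64% and 6.67% of all tested genes.

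Other DNA sensing genes moved the same way where they passed. Of 12 tested genes of the cGAS-STING pathway, 7 were lower, 0 higher and 5 did not pass (median log2 difference −1.0). Over all tested genes 11.3% were lower. The 5 were Sting1, Tbk1, Irf3, Ddx41 and Nlrx1 (limma adjusted p = 0.0739, 0.814, 0.152, 0.101 and 0.310). Cgas itself was too low to be tested. Ifi35, called lower, is also in the list of interferon-induced genes above. Trex1, an exonuclease that degrades cytosolic DNA, fell from 28.1 ± 8.25 to 11.7 ± 0.35 TPM, Irf7, a regulator of interferon genes, from 85.8 ± 33.0 to 14.6 ± 9.91 TPM and Dnase2a, a lysosomal nuclease, from 13.97 ± 4.02 to 5.62 ± 0.62 TPM (SD, n = 5 each; limma adjusted p between 0.00168 and 0.00210). Trex1 and Dnase2a degrade DNA and so act against sensing. Of 8 tested inflammasome genes, Aim2 included, 6 were lower, 0 higher and 2 did not pass (median −0.98). Casp4 and Il1a had miR-130a means under 1 TPM and passed the filter through the controls. Casp1, the inflammasome protease, Casp4, a related caspase, and Gsdmd, the pore-forming gasdermin, had log2 differences of −1.07, −1.20 and −1.16 (limma adjusted p between 0.00433 and 0.00955). Without control libraries 7 and 9 the counts were 7 of 12 and 4 of 8, against 15.5% of all tested genes lower. With median-ratio scaling or quantile normalization they were also 7 of 12 and 4 of 8, against 7.64% and 6.67%.

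**Figure D5:**
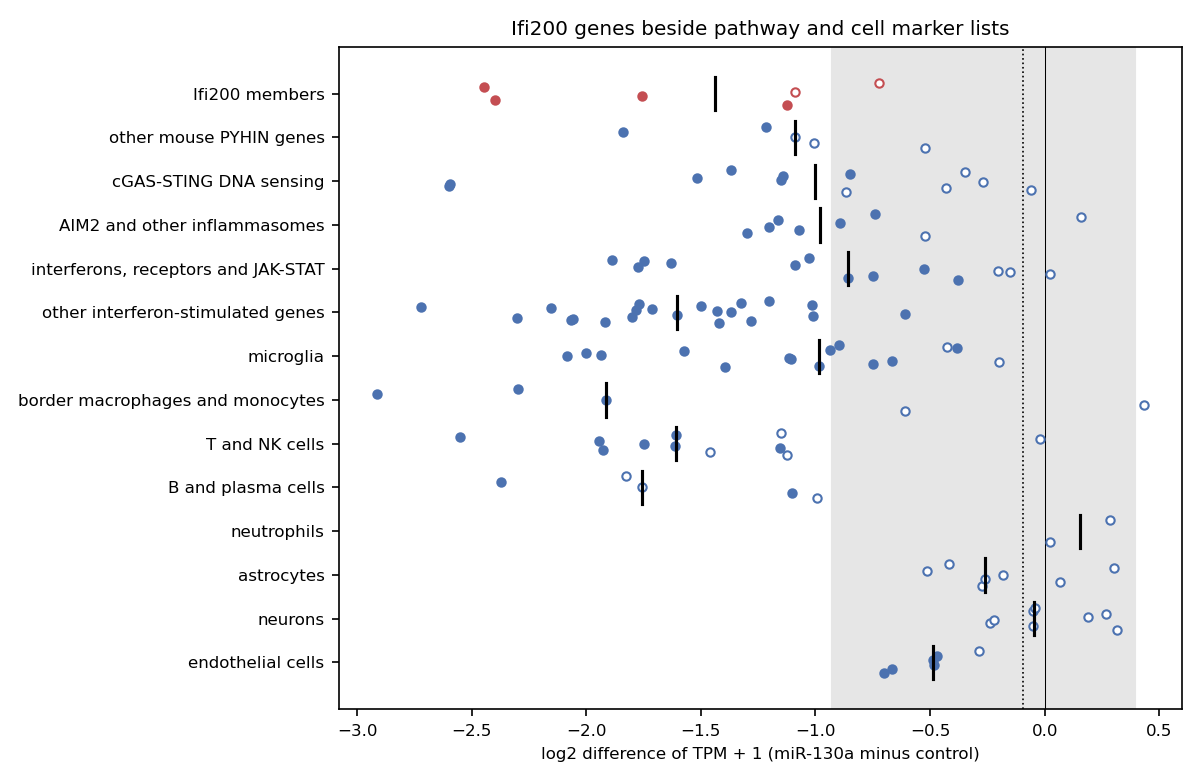
Log2 difference of TPM + 1 (x axis) of every tested gene (points) in the Ifi200 members (red) and in the pathway and cell marker lists (blue, y axis); filled points had a limma adjusted p under 0.05 and black bars are medians. The grey band spans the 5 to 95 percentiles of all tested genes, −0.93 to 0.39, and the dotted line is their median, −0.09. The members' median is −1.44, and the medians of neuronal, astrocyte, neutrophil and endothelial markers and of interferon and JAK-STAT signalling genes lie inside the band.

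Most microglial markers were lower in the miR-130a group, and markers of other immune cells were lower in part. Of 15 microglial markers, 13 were lower and 2 did not pass, against 11.3% of all tested genes lower. The 2 were P2ry12 (log2 difference −0.20, limma adjusted p = 0.485) and Gpr34 (−0.43, limma adjusted p = 0.0636). The summed level of the 15 was between 1938 and 3799 TPM in control and between 745 and 1077 TPM in miR-130a libraries. C1qa, C1qb and C1qc had the largest control means, 812, 546 and 408 TPM. Their log2 differences were −2.08, −1.94 and −2.00, while the median of the 15 was −0.98. For border macrophages and monocytes, 3 of 5 tested markers were lower (of 9 listed), with sums of 29.2 to 190 TPM in control and 7.48 to 24.8 TPM in miR-130a libraries. The 3 were Ly6c2, Plac8 and Ms4a7, and Ly6c2 alone was at 15.7 to 112 TPM in control libraries. Mrc1 (log2 difference −0.61, limma adjusted p = 0.101) and Pf4 (0.43, limma adjusted p = 0.306) did not pass. Too low to be tested were Cd163 (means of 0.40 and 0.39 TPM), Lyve1 (0.33 and 0.29), F13a1 (0.70 and 0.59) and Ccr2 (1.44 and 0.22). T and NK cell markers were lower in 7 of 11 tested, with sums of 66.5 to 204 and 52.5 to 78.95 TPM. Most of the miR-130a sum was Trbc2, a T cell receptor constant segment at 44.6 to 73.5 TPM in control and 45.1 to 62.3 TPM in miR-130a libraries. Without Trbc2 the T and NK sums were 18.0 to 130 TPM in control and 3.11 to 17.5 TPM in miR-130a libraries. B and plasma cell markers were lower in 2 of 5 tested, with sums of 167 to 4181 and 80.6 to 461 TPM. Cd3d, Cd3e, Cd8a, Cd8b1, Gzmb, Klrd1, Cd79a and Cd79b had miR-130a means under 1 TPM, so that these passed the filter through the controls. In each of these 4 lists 0 tested markers were called higher, and 0 markers were at 0 in all 10 libraries. Control libraries 7 and 9 had the highest sums of the group in all 4 lists, for example 141 and 190 TPM against at most 44.5 TPM for border macrophages and monocytes. Without both, 13 of 15 microglial, 2 of 5 border macrophage and monocyte, 3 of 6 T and NK cell and 1 of 4 B and plasma cell markers were lower. In that setting 15.5% of all tested genes were lower. Single libraries also moved these counts and the share of all tested genes called lower. Without control library 7 or miR-130a library 13 or 14, that share was 6.95%, 7.40% and 7.12%. Microglial markers were then lower in 11, 12 and 11 of 15. The 3 smaller lists moved as follows. Border markers were lower in 1 of 5 without control library 7 or miR-130a library 13 or 14. T and NK markers were lower in 3 of 10 without control library 7 and in 4 of 11 without miR-130a library 13 or 14. B and plasma cell markers were lower in 0 of 5 without control library 3 or 7 or miR-130a library 13 or 14, and in 1 of 5 without miR-130a library 15 or 17.

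In miR-130a library 15, whose Ifi200 sum was the highest of its group at 15.6 TPM, the microglial sum was 963 TPM, within the 745 to 1077 TPM of the other 4 libraries. Its sums of border macrophage and monocyte markers (24.8 TPM), of T and NK cell markers (78.95 TPM, or 17.5 TPM without Trbc2) and of neutrophil markers (27.4 TPM) were the highest of the miR-130a group, and its B and plasma cell sum (204 TPM) was not. Endothelial markers were lower in 5 of 6, against 11.3% of all tested genes. This was 4 of 6 without control libraries 7 and 9, 3 of 6 also without library 15 and 2 of 6 with quantile normalization. The shares of all tested genes lower in these settings were 15.5%, 13.9% and 6.67%. In the fit as reported, 0 of 7 astrocyte, 0 of 8 neuronal and 0 of 2 tested neutrophil markers passed in either direction by limma. Of the 8 neuronal markers, 2 were lower without control libraries 7 and 9, against 15.5% of all tested genes. Without miR-130a library 17, 2 were higher, as were 368 of all 15725 tested genes. With array weights, 3 of 7 astrocyte markers were lower and 1 of 8 neuronal markers was higher. In that setting 20.1% of all tested genes were lower, and 696 of 15680 were higher. Neuronal markers, which cortex should hold, summed to between 3603 and 6436 TPM. The part of cell make-up in the Ifi200 result was not tested.

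Among 13410 other tested genes with a gene name, those whose profile over the 10 libraries was most like the mean of the 6 members were Gbp9, Apobec3, Parp14, Ly6a and Trim30a. Likeness was the root mean square difference between log2 profiles, each centred on its own mean, and ranged from 0.17 to 0.18 for these 5. The profiles span both groups, so genes with a similar difference between the groups come out near. The 5 genes had log2 differences between −1.77 and −1.36. For single members, against 13415 genes, the nearest were Nmi, Ifi208 and Icosl for Ifi203, Irgm1, Ifi211 and Gbp5 for Ifi204, and Milr1, Tap2 and Pik3ap1 for Ifi207. They were Parp12, Trim12c and Iigp1c for Ifi209, Il18bp, Ifi204 and Gbp5 for Ifi211, and Rab7b, Evi2a and Parp12 for Ifi213. Ifi204 and Ifi211, the most abundant members, were thus each among the 3 nearest of the other, at 0.26. These 2 genes also share transcript stretches, as given above.

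The seed of the overexpressed microRNA was searched in the members, since a seed match is the usual mark of a direct target. Its RefSeq mature sequence (GRCm38.p6) is shown with the seed, bases 2 to 8, in capitals.
mmu-miR-130a-3p: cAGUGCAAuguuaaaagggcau
The sites pairing with it, TTGCACT and TGCACTA, were counted in the longest GENCODE M21 3′ untranslated region of each gene. The count was 0 in all 6 members, whose regions were between 254 bases (Ifi211) and 2129 bases (Ifi203) long. Of 13276 tested genes with such a region, 16.0% held at least 1 site. The median length over those genes was 1225 bases, and the regions of Ifi204, Ifi207 and Ifi211, at 307, 305 and 254 bases, were shorter. The result says only that these letters are not in the annotated regions.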

How the data were processed

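Per the labels' protocols, medial prefrontal cortex was punched out (1-mm diameter) and stranded mRNA libraries were made. The authors deposited TPM per gene and library; the tools named, per the submitters' processing notes, are RSEM, HISAT2, DESeq2 and fastp, with the build GRCm39 and no versions or roles. The 2 columns of the authors' group means were not used. TPM keeps no depth, so no counting interval was computed.

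Values were analysed as log2(TPM + 1). The 15680 genes with a mean of at least 1 TPM were fitted with limma 3.58.1 (lmFit, eBayes with a trend; R 4.3.3), 5 against 5 libraries, 2-sided, Benjamini-Hochberg adjusted over all tested genes, threshold 0.05. The fit was checked on simulated data. Exact permutation tests used all 252 splits and are 2-sided and unadjusted unless stated. The labels name no batch, so none was fitted, and do not tie libraries to separate animals, so a p-value reflects only how far these libraries spread, which may be technical. The 2 groups' library numbers run in separate blocks, so handling that followed them cannot be told apart from the group.

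The members, gene lists, tests and alternatives were chosen with earlier results of these data known. Named genes were all members, the other PYHIN genes, the 3 pathway genes of lowest p per list, the genes of most similar profile (predicted and clone-named models left out) and 3 flanking genes per side, of which 1 is not reported here. The shares of the summed TPM, the promoter motifs, the shared transcript stretches and the ratios with libraries left out were added after the values were seen. Alternatives covered the pseudocount, filter, scaling, variance model and libraries. Of the symbols listed, 4 PYHIN and 2 cGAS-STING names were older synonyms absent from the table. Sequences were searched with Python 3.11.15.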

Additional observations from a re-analysis of the deposited data

Results flagged for a closer look

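Ifi206 in miR-130a library 15 was 1.17 TPM, far from the other 4 miR-130a libraries, of which the next was at 0.36 TPM. Its gap on the log2 scale was 0.75 of the range of the group, above the Dixon limit of 0.71 for 5 values. Chance sets apart about 1 in 20 such groups, and 22 groups of the tested PYHIN genes were examined. No explanation of this value was tested.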

How the results depend on the processing

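Ifi204, Ifi207, Ifi211 and Ifi213 kept their direction and their side of the threshold in every alternative in which they were tested, and 0 results reversed. Ifi203 no longer passed without a filter on low values (log2 difference −1.12, limma adjusted p = 0.0936), without control libraries 7 and 9 (−0.75) and without those and miR-130a library 15 (−0.87, an alternative chosen after seeing the data). Ifi209 passed with 0.1 TPM added (−2.07), on rescaling to protein-coding genes (−1.17), with robust variance moderation (−1.09) and with array weights (−1.03). The number of members called lower was 2 at a filter of 5 TPM, which only Ifi204 and Ifi211 met. Over the whole table, where 1767 genes were lower and 343 higher, there were 1124 and 178 without a filter (36601 genes tested), 1046 and 1071 with quantile normalization and 3144 and 696 with array weights, and 1198 and 866 with median-ratio scaling. The share of calls that were higher was 16.3% as reported, 42.0% with median-ratio scaling, 50.6% with quantile normalization and 26.2% without mitochondrial genes.

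Leaving out 1 library at a time gave 1088 (without control library 7) to 2910 (without control library 9) lower and 140 to 503 higher genes (the same libraries), 3 to 5 members called lower, log2 differences of −1.28 to −0.94 for Ifi203 and −1.32 to −0.86 for Ifi209, and a summed TPM of 0.10 to 0.195 of control. Fewer libraries or another set of tested genes were part of several of these settings; the cause was not tested. No paired analysis was possible because the groups share no library number. Read depth is unknown from TPM, and values near 0, such as those of Ifi207 in the miR-130a group, have unknown counting error.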
